A study of Homo sapiens with 6 samples.

Results

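Nephric lineage transcription regulators are the factors that lay down the embryonic kidney, and HEK293T is a line derived from human embryonic kidney. The 9 regulators described here are PAX2, PAX8, EYA1, SIX2, SALL1, LHX1, WT1, OSR1 and GATA3, taken as the rows of the count table that carry these symbols, out of 56832 symbols in all. Poly(A)-selected RNA was sequenced from 3 libraries of HEK293T cells labelled as knocked out for SMARCA3 and from 3 libraries of wild-type HEK293T cells. SMARCA3 is the protein of the gene HLTF, a helicase and ubiquitin ligase, and the series concerns its action on histone H3 and on H3K9 trimethylation. Both groups are adherent cells that carry adenovirus DNA and express the SV40 large T antigen, and both were grown in the same serum-containing medium. The labels do not say how the knockout was made, whether it is a single clone, or whether the replicates were separate cultures, so each p-value reflects the spread among these libraries alone, which may be technical.

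During kidney development the intermediate mesoderm, marked by OSR1, LHX1, PAX2 and PAX8, forms the nephric duct and a neighbouring mesenchyme. The mesenchyme holds nephron progenitors, which are kept undifferentiated by SIX2 together with EYA1, SALL1 and WT1, and signals such as GDNF from these cells call out the ureteric bud. GATA3 acts in the duct and the bud that grows from it. PAX2 and PAX8 remain known as markers of renal epithelium and its tumours, and WT1 as a Wilms tumour suppressor that stays on in podocytes.

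Promoter sequence was taken from the RefSeq table (build GRCh38.p14) for 5 of the 9 regulators. The 250 bases before the most upstream annotated start of each are shown. Of these 5, WT1, SIX2 and GATA3 fell and PAX2 rose in the knockout, while PAX8 had at most 3 counts in any library. The other regulators, EYA1 among them, were left out here, which does not mean that the RefSeq table lacks them. Sequences run 5′ to 3′ on the strand of the gene, and capitals mark CpG dinucleotides, the sites of DNA methylation.
PAX2, chr10:100735146-100735395, plus strand: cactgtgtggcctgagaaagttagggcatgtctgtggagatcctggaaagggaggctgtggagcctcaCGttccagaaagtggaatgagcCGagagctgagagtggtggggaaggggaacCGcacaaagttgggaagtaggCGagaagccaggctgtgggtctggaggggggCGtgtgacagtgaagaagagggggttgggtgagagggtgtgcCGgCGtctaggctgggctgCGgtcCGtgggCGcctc
PAX8, chr2:113278922-113279171, minus strand: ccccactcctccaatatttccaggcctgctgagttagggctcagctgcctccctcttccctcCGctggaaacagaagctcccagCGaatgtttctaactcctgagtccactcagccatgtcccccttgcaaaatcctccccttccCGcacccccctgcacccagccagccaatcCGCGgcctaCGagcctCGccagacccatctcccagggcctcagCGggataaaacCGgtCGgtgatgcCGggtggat
SIX2, chr2:45009453-45009702, minus strand: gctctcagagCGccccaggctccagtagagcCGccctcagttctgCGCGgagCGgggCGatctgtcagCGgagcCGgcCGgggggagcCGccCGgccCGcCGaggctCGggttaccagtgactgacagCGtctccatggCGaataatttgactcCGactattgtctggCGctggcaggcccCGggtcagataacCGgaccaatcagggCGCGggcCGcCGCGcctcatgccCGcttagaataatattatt
WT1, chr11:32435540-32435789, minus strand: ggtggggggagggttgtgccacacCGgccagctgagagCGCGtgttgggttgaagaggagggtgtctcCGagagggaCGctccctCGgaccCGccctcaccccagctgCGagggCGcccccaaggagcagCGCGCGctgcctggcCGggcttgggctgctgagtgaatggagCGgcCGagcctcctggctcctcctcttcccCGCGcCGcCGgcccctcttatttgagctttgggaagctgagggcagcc
GATA3, chr10:8045083-8045332, plus strand: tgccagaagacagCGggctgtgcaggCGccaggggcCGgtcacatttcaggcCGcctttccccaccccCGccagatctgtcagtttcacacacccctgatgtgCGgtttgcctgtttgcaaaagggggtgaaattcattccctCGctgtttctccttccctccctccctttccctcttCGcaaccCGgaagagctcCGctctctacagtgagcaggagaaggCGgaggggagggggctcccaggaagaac
The SIX2 window held 26 CpG, more than 80.4% of the 35116 windows of all RefSeq starts, and the WT1 window held 19. In these most upstream windows PAX2, PAX8 and GATA3 had 10, 11 and 11 CpG, close to the median of 11 over all windows. Windows at the other annotated starts held 4 to 30 CpG for GATA3, 15 for PAX2 and 3 to 18 for WT1. The windows were searched on both strands for short motifs, and the share of all RefSeq windows that hold each is given as background. For WT1 and EGR factors these were GCGTGGGCG, held by 0.72% of windows, and GCGGGGGCG, held by 4.72%. The GATA factor motifs were AGATAA, held by 9.17% of windows, with TGATAA as the other form, held by 6.66%. The core of the site of PAX2, PAX5 and PAX8 was taken as GTCACGC, held by 2.20% of windows, and that of SIX2 and its relatives as TCAGGTT, held by 2.79%, while the TATA box, TATAAA, was held by 10.7%. The windows printed here gave a single match, an AGATAA on the strand of the gene in the SIX2 window, starting 63 bases before the start. GATA3 has 6, WT1 has 4 and PAX2 has 2 annotated starts in the table, and gene counts do not show which start was used.

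Total counts were 33125811 to 36804337 in the knockout libraries and 38199454 to 41593655 in the wild-type libraries, so each knockout library was shallower. HLTF, the gene of the targeted protein, had 141, 140 and 149 CPM (counts scaled to a common library total) in knockout replicates 1 to 3, against 215, 191 and 195 CPM in wild-type replicates 1 to 3. Its transcript was therefore present in every library labelled knockout, at a log2 fold change of -0.48 (edgeR adjusted p = 4.65e-05), and the median of its 40 nearest expressed genes was -0.50. A gene is called here when its edgeR adjusted p, corrected over all 18061 tested genes, is under 0.05. Of these genes, 31.8% were called, 14.0% higher and 17.7% lower in the knockout, and this is the background for every count that follows. The members and lists were chosen with earlier results of these data known, so an excess over this background does not measure enrichment. In bulk RNA, fewer cells expressing a gene and less RNA per cell cannot be told apart.

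Measured per length, SALL1 and SIX2 were the main nephric regulators of the line and the other members were far lower. In CPM per kb of exon, SALL1 averaged 9.97 ± 0.407 in the knockout and 8.44 ± 0.330 in wild-type cells, and SIX2 averaged 7.90 ± 0.753 in the knockout and 10.9 ± 0.763 in wild-type cells (SD, n = 3 each). The median over 14050 tested genes with a known length was 4.62 CPM per kb in the knockout and 4.67 in wild-type cells, so SALL1 and SIX2 lay above it in both groups. In the knockout the order of levels per kb went on with PAX2 (1.73), WT1 (0.988), GATA3 (0.576), LHX1 (0.480), EYA1 (0.394), OSR1 (0.0563) and PAX8 (0.00137), and no neighbours in this order had overlapping ranges. Wild-type cells followed another order per kb, in which SIX2 stood above SALL1, and WT1 (1.93), EYA1 (1.44), GATA3 (1.33) and PAX2 (0.723) came before LHX1 (0.527), OSR1 (0.0497) and PAX8 (0.00455). Only EYA1 and GATA3 overlapped there as neighbours, so PAX2 moved ahead of WT1, EYA1 and GATA3 in the knockout.

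Of the early regulators of the intermediate mesoderm, PAX2 rose, LHX1 and OSR1 were not called, and PAX8 was too scarce to test. PAX2, a paired-domain factor needed for the nephric duct and for the conversion of mesenchyme to epithelium, measured 10.7, 10.7 and 10.8 CPM in knockout replicates 1 to 3, against 4.12, 5.29 and 4.14 CPM in wild-type replicates 1 to 3. Every knockout library lay above every wild-type library, by a wide margin. The mean was 10.8 ± 0.0636 CPM in the knockout and 4.52 ± 0.666 CPM in wild-type cells (SD, n = 3 each), 2.39-fold higher, which is 1.25 ± 0.10 (SE) on the log2 scale (edgeR adjusted p = 7.24e-06). PAX2 lies on chromosome 10 between 100735603 and 100829941 (GRCh38), and no other annotated gene overlaps it. The exact permutation test gave p = 0.1 for PAX2 as for each of the other 5 called regulators, the lowest two-sided value possible with 3 libraries in each group.

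PAX8, the paralog that acts redundantly with PAX2 in the nephric lineage of the mouse, was close to absent. The gene is at 113215997 to 113278950 on chromosome 2, minus strand. It had 0, 0 and 1 counts in knockout replicates 1 to 3 and 1, 3 and 0 counts in wild-type replicates 1 to 3. All 6 values are at or under a floor of 3 counts, which corresponds to 0.0815 to 0.0909 CPM in the knockout libraries and to 0.0723 to 0.0787 CPM in the wild-type libraries, so no fold is given and no change was detectable at this depth. The floor covers counting error only. The antisense gene PAX8-AS1, whose exons share 685 bases with those of PAX8 on the other strand, had 3, 5 and 10 counts in the knockout and 6 in each wild-type library.

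LHX1, a LIM homeodomain factor needed for the nephric duct, had 2.56, 2.25 and 2.21 CPM in the knockout against 2.27, 2.46 and 2.99 CPM in wild-type cells. The ranges overlapped, and the log2 fold change of -0.13 had a 95% interval of -0.45 to 0.18 (adjusted p = 0.522). LHX1 is at 36936785 to 36944612 on chromosome 17, and its exons share 367 bases with AC243773.1 on the other strand. OSR1, a zinc finger factor and the earliest known marker of the intermediate mesoderm, had 15, 8 and 8 counts in the knockout and 7, 12 and 12 counts in wild-type cells, 31 in each group. Its log2 fold change of 0.18 had a 95% interval of -0.67 to 1.04 (adjusted p = 0.756), a fold between 0.629 and 2.05, so a change of moderate size was not detectable at this depth. OSR1 is at 19351485 to 19358653 on chromosome 2, with no annotated gene overlapping it.

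**Figure D1:**
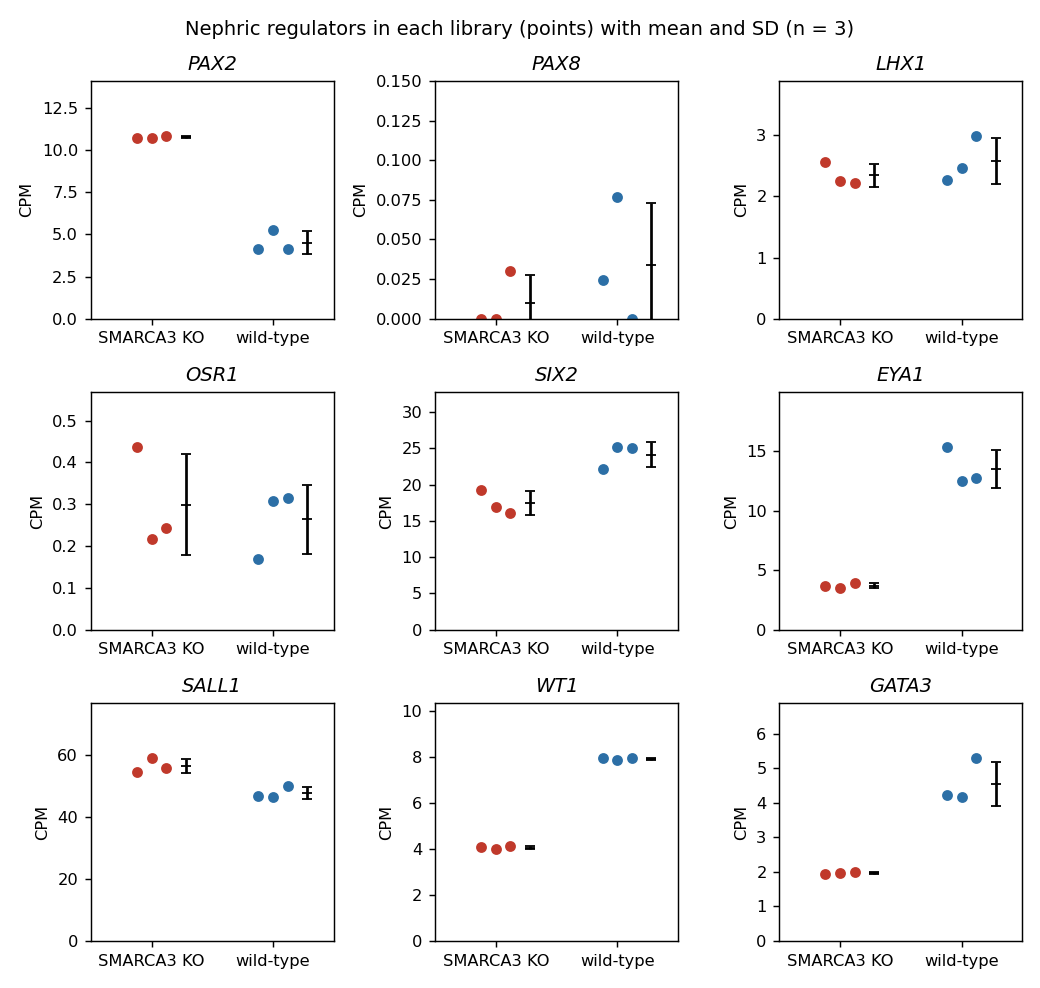
Levels in CPM (linear axes that start at 0 and differ between panels) of the 9 regulators, with 1 point per library, SMARCA3 knockout left and wild-type right, and bars for mean and SD (n = 3). PAX2 and SALL1 are higher and EYA1, SIX2, WT1 and GATA3 lower in all 3 knockout libraries, while LHX1, OSR1 and PAX8 overlap.

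The nephron progenitor regulators did not move together, since SIX2, EYA1 and WT1 fell and SALL1 rose slightly. EYA1, a transcriptional coactivator and phosphatase that binds SIX2, had 3.70, 3.50 and 3.94 CPM in knockout replicates 1 to 3, against 15.4, 12.5 and 12.7 CPM in wild-type replicates 1 to 3. The highest knockout library was thus far below the lowest wild-type library. EYA1 averaged 3.71 ± 0.218 CPM in the knockout and 13.5 ± 1.60 CPM in wild-type cells, 3.65-fold lower, which is -1.87 ± 0.11 (SE) on the log2 scale (edgeR adjusted p = 4.63e-07), the largest among the members. The gene spans 71197433 to 71592025 of chromosome 8, on the minus strand, with exons that overlap AC015687.1 by 347 bases and AC022858.1 by 206 bases on the other strand. Whether reads were counted by strand is not stated in the sources used here, and reads of such overlapping genes may not have been told apart.

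SIX2, the homeodomain factor that keeps nephron progenitors from differentiating, had 19.3, 16.9 and 16.1 CPM in the knockout against 22.2, 25.2 and 25.0 CPM in wild-type cells. These ranges did not overlap, although knockout replicate 1 and wild-type replicate 1 lay near each other. Mean SIX2 was 17.4 ± 1.66 CPM in the knockout and 24.1 ± 1.68 CPM in wild-type cells, 1.38-fold lower, which is -0.47 ± 0.08 (SE) on the log2 scale (edgeR adjusted p = 0.0015). Its locus is 45005161 to 45009430 of chromosome 2, minus strand, with no annotated gene overlapping it.

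WT1, a zinc finger factor of progenitors and podocytes, had 4.08, 3.99 and 4.12 CPM in the knockout against 7.95, 7.88 and 7.95 CPM in wild-type cells. The libraries of each group were nearly equal and the groups were well apart. At 136 to 147 counts per knockout library and 303 to 330 per wild-type library, these spreads are smaller than counting error alone would give. The SDs of WT1 therefore understate its uncertainty, as do those of PAX2 and GATA3 in the knockout. The averages were 4.06 ± 0.0650 CPM in the knockout and 7.93 ± 0.0416 CPM in wild-type cells, 1.95-fold lower, which is -0.96 ± 0.08 (SE) on the log2 scale (edgeR adjusted p = 1.11e-05). WT1 occupies 32387775 to 32435630 on the minus strand of chromosome 11, and its exons share 113 bases with WT1-AS on the other strand, a noncoding gene that starts 112 bases from the start of WT1.

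SALL1, a zinc finger repressor that works through the NuRD complex in progenitors, was the most abundant member by CPM. It measured 54.5, 59.0 and 55.9 CPM in the knockout against 46.8, 46.6 and 49.9 CPM in wild-type cells. Every knockout library was above every wild-type library, by a narrow margin. The mean of 56.4 ± 2.30 CPM in the knockout and 47.8 ± 1.86 CPM in wild-type cells is a 1.18-fold rise, which is 0.24 ± 0.05 (SE) on the log2 scale (edgeR adjusted p = 0.00578). SALL1 is at 51135975 to 51151367 on chromosome 16, minus strand, and shares no exon base with an annotated gene on the other strand.

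GATA3, the zinc finger factor of the nephric duct and ureteric bud, had 1.95, 1.98 and 2.00 CPM in the knockout against 4.22, 4.16 and 5.30 CPM in wild-type cells. No wild-type library came near the knockout range, and wild-type replicate 3 stood above the other two. The mean was 1.98 ± 0.0246 CPM in the knockout and 4.56 ± 0.642 CPM in wild-type cells, 2.30-fold lower, which is -1.20 ± 0.13 (SE) on the log2 scale (edgeR adjusted p = 5.91e-05). GATA3 lies on chromosome 10 between 8045378 and 8075203, on the short arm, where the genes around it were lower as well.

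Of the 9 regulators, 8 passed the filter on low counts, and 6 of these were called, against 31.8% of all tested genes, with 2 higher and 4 lower. Because the members were chosen with earlier results of these data known, neither this excess nor those below test enrichment. Of the called members, 4 changed by at least 0.9 on the log2 scale, a cut that was not set in advance and that WT1, at -0.96, just passed. Of all tested genes, 5.93% were called and changed by at least as much. The groups did not overlap in 6 of 8, against 45.6% of all tested genes. Their median log2 fold change was -0.30, beside 0.0031 over all tested genes, and the median size of the change was 0.72, beside 0.18. A change larger than that of EYA1 was seen in 1.68% of tested genes, larger than PAX2 in 3.53%, larger than GATA3 in 3.84% and larger than WT1 in 5.60%, whereas 18.4% exceeded SIX2 and 39.6% exceeded SALL1. Summed over the 9 genes, the level was 97.0 ± 1.59 CPM in the knockout and 105 ± 2.72 CPM in wild-type cells.

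**Figure D2:**
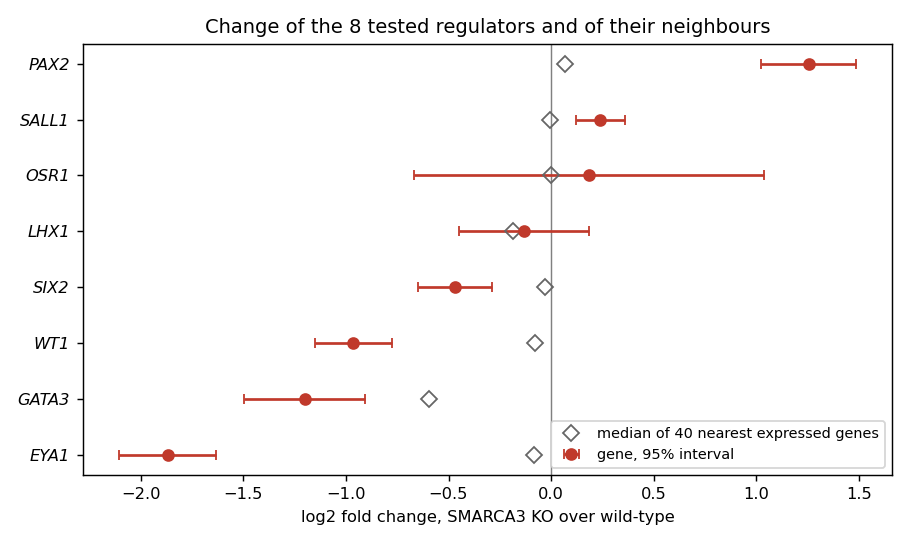
Log2 fold change of the 8 tested regulators, SMARCA3 knockout over wild-type, with 95% intervals (circles), and the median of the 40 nearest expressed genes of each (open diamonds). GATA3 at -1.20 has neighbours with a median of -0.60, while the neighbour medians of the other 7 lie between -0.19 and 0.07.

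To see whether genes nearby moved too, each regulator was set beside its 40 nearest genes of at least 2 CPM, 20 on each side. Around GATA3 all 40 were called lower, with a median log2 fold change of -0.60 and a range of -1.65 to -0.22, and 2 of the 40 were lower than GATA3. With the neighbour median removed in the fit, the log2 fold change of GATA3 was -0.60 (adjusted p = 0.00695), against -1.20 without that step. The other 5 called regulators changed little by this step, with log2 fold changes of 1.18 for PAX2, -1.78 for EYA1, -0.44 for SIX2, 0.25 for SALL1 and -0.88 for WT1, all still called. PAX2, on the long arm of chromosome 10, was above all 40 of its neighbours, whose median was 0.07, and EYA1 was below all 40 of its own, whose median was -0.08. Of those around EYA1, 11 were called lower and 4 higher, and the nearest towards higher coordinates, KCNB2 at 0.945 Mb, had -0.99 (called). Around SALL1, 7 were called higher and 6 lower, with NKD1, ZNF423 and CBLN1 at 0.31, 0.74 and 0.66 among the higher. These genes were named after their values were seen, and a common source was not tested.

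WT1 stood below 39 of its 40 neighbours, but genes close to it fell as well. Between 0.394 and 0.641 Mb from its start, towards higher coordinates, PRRG4, QSER1, DEPDC7, TCP11L1 and LINC00294 had log2 fold changes of -1.28, -0.47, -0.59, -0.67 and -0.70, all called (a run chosen after its values were seen). The nearest expressed gene on that side, EIF3M at 0.148 Mb, had a log2 fold change of -0.09 and was not called, and on the other side RCN1 had 0.11 and was not called. PAX6, a regulator of eye and brain that belongs to the PAX family and starts 0.618 Mb away on that side, had a log2 fold change of 0.21 (adjusted p = 0.0152, and 0.0719 without knockout replicate 1; named after its values were seen). Whether these changes have a common source was not tested.

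**Figure D3:**
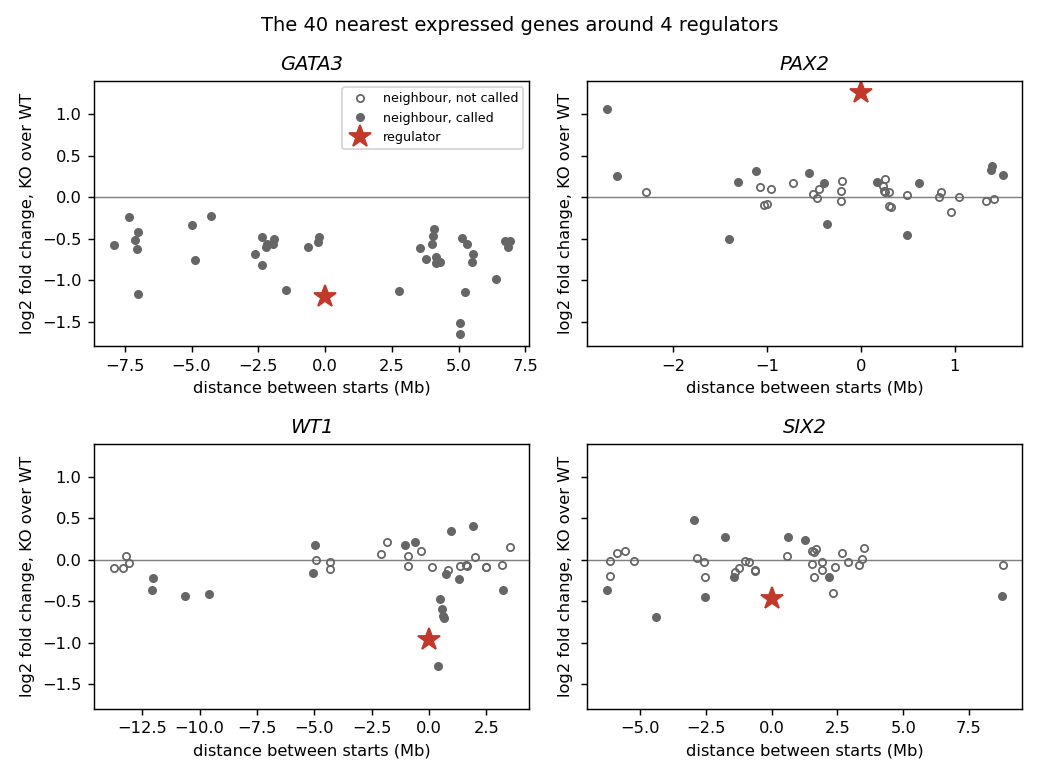
Log2 fold change (knockout over wild-type) of the 40 nearest expressed genes around GATA3, PAX2, WT1 and SIX2 against the distance between gene starts in Mb, with filled points for called and open points for uncalled neighbours and a star for the regulator. Every neighbour of GATA3 lies below 0, whereas the neighbours of the other 3 scatter around 0.

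Several regulators share the line with close relatives, and the share of the family that each took differed between the groups. PAX2 made up 96.9 ± 0.602% of the counts of PAX2, PAX5 and PAX8 in the knockout and 92.2 ± 0.694% in wild-type cells. EYA1 made up 2.09 ± 0.148% of the counts of EYA1 to EYA4 in the knockout and 7.83 ± 0.767% in wild-type cells. The main EYA gene was EYA3, with 108 ± 1.39 CPM in the knockout and 103 ± 1.21 CPM in wild-type cells (not called), and EYA4 rose by 0.31 on the log2 scale (adjusted p = 0.0026). SALL1 took 46.3 ± 1.39% of the counts of SALL1 to SALL4 in the knockout and 39.5 ± 1.15% in wild-type cells, while SALL2 fell to 50.6 ± 0.654 CPM in the knockout, against 62.9 ± 2.72 CPM in wild-type cells. Per kb of exon, SALL1 stood above SALL2 in the knockout (9.97 and 9.39 CPM per kb) and below it in wild-type cells (8.44 and 11.7 CPM per kb). GATA3 accounted for 2.84 ± 0.211% of the counts of GATA1 to GATA6 in the knockout and 5.94 ± 0.666% in wild-type cells. The leading GATA genes, GATA4 and GATA2, had log2 fold changes of 0.0040 and -0.22 and were not called, and the scarce GATA5, with 14 counts in the knockout and 56 in wild-type cells, had a log2 fold change of -1.79 (adjusted p = 0.0062, named after its values were seen). LHX5, the closest relative of LHX1, had 0 counts in all libraries. For the other 4 families the shares did not overlap between groups, and the exact permutation p was 0.1 for each.

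**Figure D4:**
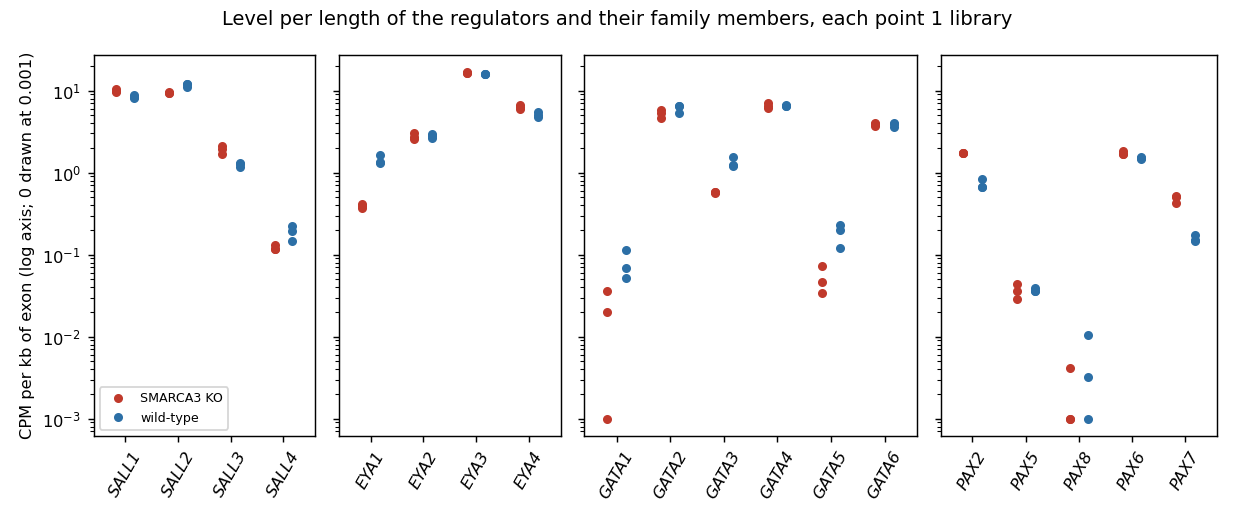
Level per length (CPM per kb of exon, log axis, values of 0 drawn at 0.001) of genes of the families of SALL1, EYA1, GATA3 and PAX2, with 1 point per library, SMARCA3 knockout left of wild-type within each gene. EYA1 and GATA3 are minor members of families led by EYA3 and by GATA4, and SALL1 and SALL2 exchange places between the groups.

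Among 39 further genes of the members' families, 32 were tested, and of these 5 rose, 7 fell and 20 stayed uncalled, at a median log2 fold change of -0.02. Over all tested genes, 14.0% were higher and 17.7% lower. PAX7, a factor of neural crest and muscle precursors, rose to 3.07 ± 0.314 CPM in the knockout, against 0.988 ± 0.0983 CPM in wild-type cells (log2 fold change 1.63, adjusted p = 1.51e-05). SALL3 rose by 0.62 and LHX2 by 0.48 on the log2 scale. LHX8 fell by 1.33, ISL1, a LIM factor of motor neurons and heart, by 0.41, LHX9 by 0.62 and SALL4 by 0.63 on the log2 scale. The calls of LHX9 and SALL4 were fragile: that of LHX9 was lost without knockout replicate 1 (adjusted p = 0.0594) or 2 (0.0977) and without wild-type replicate 2 (0.0774) or 3 (0.0628), and that of SALL4 in each such fit but that without wild-type replicate 3 (adjusted p up to 0.160, without wild-type replicate 2). Both calls were lost with DESeq2 too (adjusted p = 0.0738 for LHX9 and 0.221 for SALL4). That of SALL4 was also lost with limma-voom (adjusted p = 0.0640) and with a replicate block in edgeR (0.0862). Without knockout replicate 2 or wild-type replicate 2 the list had 4 lower genes.

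Genes for proteins that work with the regulators were called in the higher direction alone. Of 28 cofactors, 27 were tested: 11 rose, 0 fell and 16 gave no call, at a median log2 fold change of 0.16, against 14.0% of all genes higher and a median of 0.0031. At an unadjusted p under 0.05, 14 were higher and 1 lower in edgeR, and DESeq2 called 10 higher and 0 lower. BASP1, a corepressor of WT1, rose to 9.68 ± 0.840 CPM in the knockout, against 6.84 ± 0.330 CPM in wild-type cells (log2 fold change 0.50, adjusted p = 0.00178), and ZFPM2, which binds GATA factors, rose by 0.48. WTIP, which binds WT1, and ZFPM1, another partner of GATA factors, each rose by 0.51. The call of WTIP was lost without knockout replicate 1 (adjusted p = 0.0757) or wild-type replicate 2 (0.0675). That of ZFPM1 was lost in all left-out fits except that without wild-type replicate 3 (adjusted p up to 0.0880, without knockout replicate 1), and with DESeq2 (0.0645). Once the neighbour median was removed in the edgeR fit, WTAP (adjusted p = 0.306) and PAXIP1 (0.418) lost their calls. TLE4 was then called higher (0.00492), and these genes were named after their values were seen. The most abundant cofactors, the NuRD subunits RBBP7, RBBP4 and CHD4, had log2 fold changes of -0.0041, -0.04 and 0.06 and were not called.

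Other transcription regulators of the developing kidney went both ways. Of 26 genes, 17 were tested: 3 rose, 6 fell and 8 gave no call, at a median of -0.08. CITED1, a marker of the most immature nephron progenitors, fell to 23.0 ± 0.534 CPM in the knockout, against 31.6 ± 1.83 CPM in wild-type cells (log2 fold change -0.46, adjusted p = 0.000258). ETV4 and ETV5, targets of RET signalling, had log2 fold changes of -0.67 and -0.44. Both calls were lost with DESeq2 (adjusted p = 0.0978 and 0.0754), which called 3 genes of this list higher and 4 lower. The ETV4 call was lost without knockout replicate 1 (adjusted p = 0.0698) or 3 (0.103) or wild-type replicate 2 (0.123), and the ETV5 call without knockout replicate 2 (0.101) or wild-type replicate 1 (0.0591) or 2 (0.0698). MECOM, on chromosome 3, was at -0.59 on the log2 scale while the median of its neighbours was -0.71, and with that median removed it was 0.12 (adjusted p = 0.284). SOX9, a factor of the bud tip, rose by 0.53 and FOXC1 by 0.18 on the log2 scale, the last not called with its neighbour median removed (adjusted p = 0.113). HNF4A, a factor of proximal tubule differentiation, had 1 count in the knockout libraries and 2 in the wild-type libraries in total (named after its values were seen).

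Signals and receptors of the developing kidney were called in both directions. Of 30 genes, 24 were tested: 8 rose, 10 fell and 6 gave no call, at a median log2 fold change of -0.06. NPNT, the ligand of integrin alpha 8 at the bud, fell to 0.931 ± 0.256 CPM in the knockout, against 4.35 ± 0.566 CPM in wild-type cells (log2 fold change -2.22, adjusted p = 7.87e-06). FGF9, a growth factor for nephron progenitors, fell by 1.28, WNT11, made at the bud tip, by 1.41, and SPRY1, an inhibitor of RET signalling, by 0.81 on the log2 scale. GDNF, the bud-inducing ligand, had 28, 17 and 21 counts in the knockout against 47, 40 and 38 counts in wild-type cells (log2 fold change -0.73, adjusted p = 0.0287). That call was lost without knockout replicate 2 (0.122) or 3 (0.0737) and without wild-type replicate 1 (0.0625) or 2 (0.0613), and with DESeq2 (0.155). Its coreceptor GFRA1 had a log2 fold change of -0.44 (adjusted p = 0.0132, and 0.0594 without knockout replicate 1), and GDNF and GFRA1 were both named after their values were seen. The GDNF receptor RET rose by 0.48, a call lost without knockout replicate 3 (adjusted p = 0.0572). The Notch pathway genes JAG1, DLL1 and LFNG rose by 0.46, 0.54 and 0.63, and the receptor gene NOTCH2 by 0.26, at 283 ± 9.43 CPM in the knockout and 236 ± 4.81 CPM in wild-type cells. DLL1 was not called with its neighbour median removed (adjusted p = 0.135), and LFNG was not called with DESeq2 (adjusted p = 0.0602). SLIT2 and FGFR1, the other most abundant genes of the list, rose by 0.29 and 0.19.

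The called markers of mature nephron segments were lower in the knockout. Of 8 podocyte markers, 5 were tested: 3 fell, 0 rose and 2 gave no call, at a median of -0.77; at an unadjusted p under 0.05, 4 were lower and 0 higher in edgeR, and DESeq2 called 3 and 0. PODXL, the sialomucin of podocyte processes, fell to 38.1 ± 0.767 CPM in the knockout, against 64.8 ± 0.991 CPM in wild-type cells (log2 fold change -0.77, adjusted p = 8.35e-07). PTPRO, a receptor phosphatase of podocytes, fell to 7 counts in the knockout libraries, against 173 in the wild-type libraries (log2 fold change -4.37). SYNPO, an actin-binding protein of podocytes, was not called. The defining slit diaphragm gene NPHS1 had 8 counts in the knockout and 8 in wild-type cells. Of 8 proximal tubule markers, 4 could be tested, and 2 of them fell and 0 rose, also at an unadjusted p under 0.05 in edgeR, and DESeq2 called 1 lower. LRP2, the megalin receptor, fell to 20.2 ± 0.339 CPM in the knockout, against 40.4 ± 3.08 CPM in wild-type cells (log2 fold change -0.998), AQP1 was not called, and SLC22A6 and SLC22A8 had 0 counts throughout. CUBN, its partner receptor, was at the threshold (adjusted p = 0.0488) and its call was lost without knockout replicate 2 (0.164) or 3 (0.163) and wild-type replicate 2 (0.148) or 3 (0.0530), and with its neighbour median of -0.64 removed. Among 10 loop, distal and collecting duct markers only AQP3 was tested (log2 fold change -0.24, not called), ATP6V1B1 and CALB1 were too scarce to test, and UMOD had 0 counts in all libraries. Summed levels were 46.9 to 47.4 CPM in the knockout and 75.6 to 79.0 CPM in wild-type cells for the podocyte list, and 21.8 to 22.4 CPM in the knockout and 40.1 to 45.9 CPM in wild-type cells for the proximal tubule list. The loop, distal and duct list summed to 1.66 to 2.07 CPM in the knockout and 1.86 to 2.13 CPM in wild-type cells.

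The labels call the line epithelial-like and embryonic kidney. Of 8 epithelial markers, 5 were tested: 4 fell, 0 rose and 1 gave no call, and their summed level was 22.0 to 23.3 CPM in the knockout and 41.8 to 46.6 CPM in wild-type cells. At an unadjusted p under 0.05, 4 were lower and 1 higher in edgeR, and DESeq2 called 4 lower and 0 higher. KRT18 fell to 13.8 ± 0.539 CPM in the knockout, against 30.7 ± 2.62 CPM in wild-type cells, KRT8 fell by 0.91 and CDH1, the epithelial cadherin, by 0.57 on the log2 scale, and KRT19 had 0 counts. Neuronal and adrenal markers summed to 165 to 167 CPM in the knockout and 189.7 to 194.5 CPM in wild-type cells, with TH and DBH at 0 in every library. Of 9 tested among 12, STMN2 rose by 4.45, NEFM and SYP fell, with log2 fold changes of -9.40 and -0.31, and 6, NEFL and INA among them, were not called. Summed stroma markers lay at 25.8 to 27.3 CPM in the knockout and 27.8 to 29.3 CPM in wild-type cells, and endothelial markers at 16.6 to 19.0 CPM in the knockout and 15.4 to 18.4 CPM in wild-type cells, with DCN and EMCN at 0 counts. Of 5 stroma and 2 endothelial markers tested, 0 were called by edgeR, DESeq2 or limma, and 0 had an unadjusted p under 0.05 (MEIS1, COL1A1 and PDGFRA led the stroma list, and FLT1 and KDR the endothelial one). With a library left out, 1 stroma marker was called lower without wild-type replicate 1, 1 endothelial marker higher without wild-type replicate 1 and 1 lower without knockout replicate 3, and 1 epithelial marker higher without knockout replicate 1 or wild-type replicate 3. The part of these markers in the changes of the regulators was not tested.

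**Figure D5:**
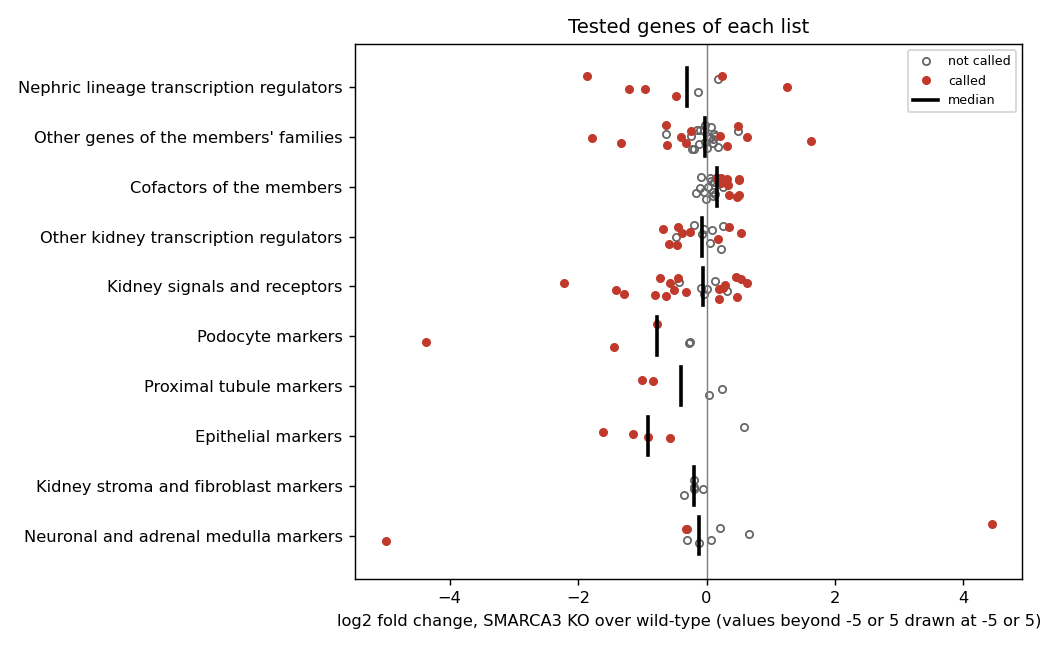
Log2 fold change (SMARCA3 knockout over wild-type) of each tested gene in the lists with at least 4 tested members, filled where called, with black bars for the median and values beyond -5 or 5 drawn at that limit. Podocyte and epithelial markers have medians of -0.77 and -0.91, whereas cofactors of the regulators have a median of 0.16.

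Each regulator of at least 1 CPM was also set beside the 14184 other tested genes of that level by its log2 CPM profile over the 6 libraries, centred on its mean, and the nearest genes by Euclidean distance are given as a description. For PAX2 these were BCL11B (distance 0.129) and SCUBE1 (0.147), and for EYA1 they were ACVR1C (0.187) and HPGD (0.199). WT1 was nearest to TMLHE (0.0666) and CA2 (0.0712), SIX2 to ATF5 (0.0986) and HIST1H2AC (0.10), and GATA3 to PLEKHA7 (0.197) and SHROOM1 (0.203). SALL1 lay nearest to ZNF395 (0.0576) and SAYSD1 (0.0673), and LHX1 to AC002467.7 (0.0841) and MIDN (0.0916).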

How the data were processed

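From a stranded poly(A) kit with paired reads, per the labels, the authors deposited raw read counts, whole numbers for each gene symbol and library. The submitters' processing notes list hg38 as the build and STAR 2.4, HTSeq 0.9.1, DESeq2, Picard and Trim Galore as tools, without saying which did what. Neither the annotation release nor the use of strand in counting is given in the sources used here. The test on these counts was that of edgeR 4.0.16 under R 4.3.3 (filterByExpr, TMM, quasi-likelihood F test, no covariate, Benjamini-Hochberg over 18061 genes). CPM are counts per 1000000 TMM-scaled counts of tested genes, and log2 CPM for permutation tests and distances used a prior count of 2. No replicate pair agreed within sampling noise (chi-square over its degrees of freedom was 3.56 to 15.3), so all 6 libraries were counted. Positions and exon lengths came from GENCODE release 29 (GRCh38), matched by symbol or former symbol for 29538 of 56832 symbols. The members and lists were chosen with earlier results of these data known. The text names all 9 members, up to 4 called genes of at least 1 CPM per list and direction by size of change, the 3 most abundant genes of each list, and the 2 genes most like each member. Alternatives used DESeq2 1.42.0, limma 3.58.1 (voom), other scalings and filters, robust dispersion, a replicate block, each library left out, thinning, a stricter threshold and removal of the neighbour median. Some genes that this rule names are not reported here. The procedure was tested on simulated data.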

Additional observations from a re-analysis of the deposited data

How the results depend on the processing

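The 6 called regulators kept their direction and their call in every alternative run, with leave-one-out log2 fold changes of 1.20 to 1.39 for PAX2, -1.91 to -1.76 for EYA1, -0.54 to -0.41 for SIX2, 0.21 to 0.28 for SALL1, -0.97 to -0.95 for WT1 and -1.25 to -1.07 for GATA3. Residuals of same-numbered knockout and wild-type libraries correlated at -0.48, -0.08 and -0.13, and those of the other pairs at -0.33 to 0.41. Each group was centred on its own mean, which ties the residuals together. These values therefore cannot show whether same-numbered libraries share a batch. With a replicate block, 1791 genes were higher and 2441 lower. The log2 fold changes were then 1.26 for PAX2, -1.86 for EYA1 and -0.47 for SIX2. They were 0.24 for SALL1, -0.96 for WT1 and -1.19 for GATA3, and all 6 were still called. At an adjusted p under 0.01, 1421 genes were higher and 2056 lower. Uncalled regulators reversed in places: LHX1 was at 0.0555 with the neighbour median removed, and OSR1 ranged over -0.18 to 0.38 with a library left out. Other reversals were in MECOM (0.12), INA (-0.0382), MEIS1 (0.0588) and RBBP7 (0.0603) with the neighbour median removed, RBBP7 with DESeq2 (0.0029), RLE factors (0.0063), a 1 CPM filter (0.0058) and thinning (0.0072), and, with a library left out, in RBBP7 (-0.0147 to 0.0328), RBBP4 (-0.0489 to 0.0035), AQP1 (-0.14 to 0.31) and MEIS1 (-0.10 to 0.0145). Counts moved in 6 lists. Family genes called lower were 4 with DESeq2, the stricter threshold and the 1 CPM filter, and 4 to 7 with a library left out. Proximal tubule markers called lower were 1 with DESeq2, the stricter threshold, the 1 CPM filter, the neighbour median removed and the replicate block, and 1 to 2 with a library left out. Without the filter, 1 cofactor and 1 stroma marker were called lower and 1 epithelial marker higher; 1 epithelial marker was also called higher with RLE factors, the 1 CPM filter and robust dispersion, and 1 stroma marker lower with the neighbour median removed. With a library left out, epithelial (higher), stroma (lower) and endothelial (either way) counts were 0 to 1. Measured per kb, the difference in family share (knockout minus wild-type, percentage points) was 3.33 for PAX2, -4.17 for EYA1 and -3.79 for GATA3, against 4.67, -5.75 and -3.10 from counts. Shares per kb weight the same counts by exon length, which alone sets their difference from the shares of counts. Why the other results above shifted was not tested. Scaling moved the median of all genes by at most 0.01 on the log2 scale. Depth limited OSR1 and PAX8.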
